A study of Homo sapiens with 6 samples.

Results

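The genes described here are the subunits of the transcription factor NF-kB and genes that NF-kB switches on, several of which hold it in check. They were taken by name, with earlier results of these data known: NFKB1, NFKB2, RELA, RELB, NFKBIA, NFKBIZ, TNFAIP3, TNFAIP2, BIRC3 and SOD2. Every probe set that the platform annotation gives to 1 of these 10 genes and to no other was used, which made 16 probe sets for 9 genes, out of 41091 probe sets for 19775 genes in the series. No probe set was listed with BIRC3, so the expression of this inhibitor of apoptosis was not analysed here. Another 4 probe sets were listed with SOD2 and SOD2-OT1 together and fell outside the rule.

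The cells were A549, a human lung adenocarcinoma line, in 3 lentiviral stable lines with a tetracycline-inducible short hairpin RNA. The lines were shCNOT3-1 and shCNOT3-2, which carry different hairpins against CNOT3, and shNTC, which carries a non-targeting hairpin. Each line was measured on 1 array after 72 hours with doxycycline (DOX, 1 ug/ml) and on 1 array without it, 6 arrays in all. All arrays thus share the A549 parent and an integrated vector, each line stands for 1 stable line, and shNTC shows what DOX and a hairpin as such go along with.

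NF-kB works as pairs of subunits. In resting cells inhibitors such as IkB alpha, the product of NFKBIA, hold the pairs in the cytoplasm. When receptors activate the IKK kinase, IkB alpha is phosphorylated by IKK, marked by ubiquitin and destroyed, and the freed pairs turn on target genes, NFKBIA and TNFAIP3 among them, which then shut the signal off. CNOT3 belongs to the CCR4-NOT complex, which removes poly(A) tails from mRNAs, and mRNAs of inflammatory genes are among those with fast turnover.

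Values are MAS5 intensity, a background-corrected brightness per probe set on a linear scale, and levels are not compared between probe sets. In these bulk cultures fewer cells that express a gene and less RNA per cell cannot be told apart. A change is log2 of the intensity plus 1 with DOX minus the same without DOX. A gene was read from its brightest probe set and tested if its mean log2 reached 5.96, the median of all probe sets, and all 9 measured members passed that filter. The filter used the mean of all 6 arrays. Changes were tested with limma over 12630 genes, with the line as a block. The 2 hairpins stood for the replicates of knockdown. The main model had no term for DOX, so its change averages both hairpin lines with nothing subtracted for shNTC. The shNTC pair counted as without knockdown, and its difference with DOX entered the residual spread, with 2 residual degrees of freedom. SEs and p-values of this model thus reflect shNTC as well as the hairpins. Because nothing in the labels speaks of repeat cultures, p-values cover no more than the spread of these 6 arrays, which may be technical.

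CNOT3 itself read 81.9 with DOX and 227 without it in shCNOT3-1, 46.9 and 228 in shCNOT3-2, and 166 and 178 in shNTC. This left 36.1%, 20.5% and 93.4% of the level without DOX. A second CNOT3 probe set left 22.3%, 21.0% and 36.9% of it in these lines. By its brightest probe set, the CNOT3 change of -1.86 did not reach an adjusted p of 0.05 (adjusted p = 0.0677 in limma). The CNOT3 change beyond that of shNTC, -1.76, did not reach it either (adjusted p = 0.530 in limma). Arrays correlated at 0.95 to 0.98 over log2 values of probe sets above the filter. Of 11 markers of A549 epithelium 10 were listed and all 10 were above the filter, up to an intensity of 54270, while EPCAM was dim (132 to 372). Summed markers of leukocytes were 416 and 532 on the shCNOT3 arrays with DOX, against 384 to 460 on the other 4. Of the 5 measured, 2 passed the filter, CD14 (144 to 265) and ITGAM (94.5 to 147). PTPRC was at 15.6 to 38.0, under the filter intensity of 61.4. Sums were 572 and 733 against 476 to 645 for fibroblast markers, and 258 and 297 against 167 to 413 for endothelial markers. The erythroid list had 1 measured gene, HBB, at 222 and 243 against 138 to 216, so both knockdown arrays lay above the other 4, and its part in the results was not tested. The 3' to 5' ratio of ACTB probe sets, a sign of RNA integrity, was 1.42 and 1.45 with DOX, against 1.33 and 1.36 without it, in shCNOT3-1 and shCNOT3-2, and 1.47 against 1.58 in shNTC. The part of this ratio in the results was not tested.

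With CNOT3 knockdown, 7 of the 9 members were higher in both shCNOT3 lines (NFKB1, RELA, RELB, NFKBIA, TNFAIP3, TNFAIP2 and SOD2), where 33.2% of all tested genes were. None passed the threshold of an adjusted p of 0.05, which 0.222% of all tested genes (28 genes) did. NFKBIA had the largest mean change, 1.00 ± 0.70 on the log2 scale (SD over the hairpins, n = 2). SOD2, RELB, TNFAIP2 and TNFAIP3 followed, at 0.81 ± 0.08, 0.78 ± 0.04, 0.69 ± 0.47 and 0.59 ± 0.06. At an unadjusted p under 0.05, 5 members were higher (RELB, NFKBIA, TNFAIP3, TNFAIP2 and SOD2) and 0 lower, against 7.45% and 7.08% of all tested genes. The median change of the 9 members was 0.63 in shCNOT3-1, 0.50 in shCNOT3-2 and -0.06 in shNTC, and over all tested genes it was 0.05, 0.02 and -0.01.

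**Figure D1:**
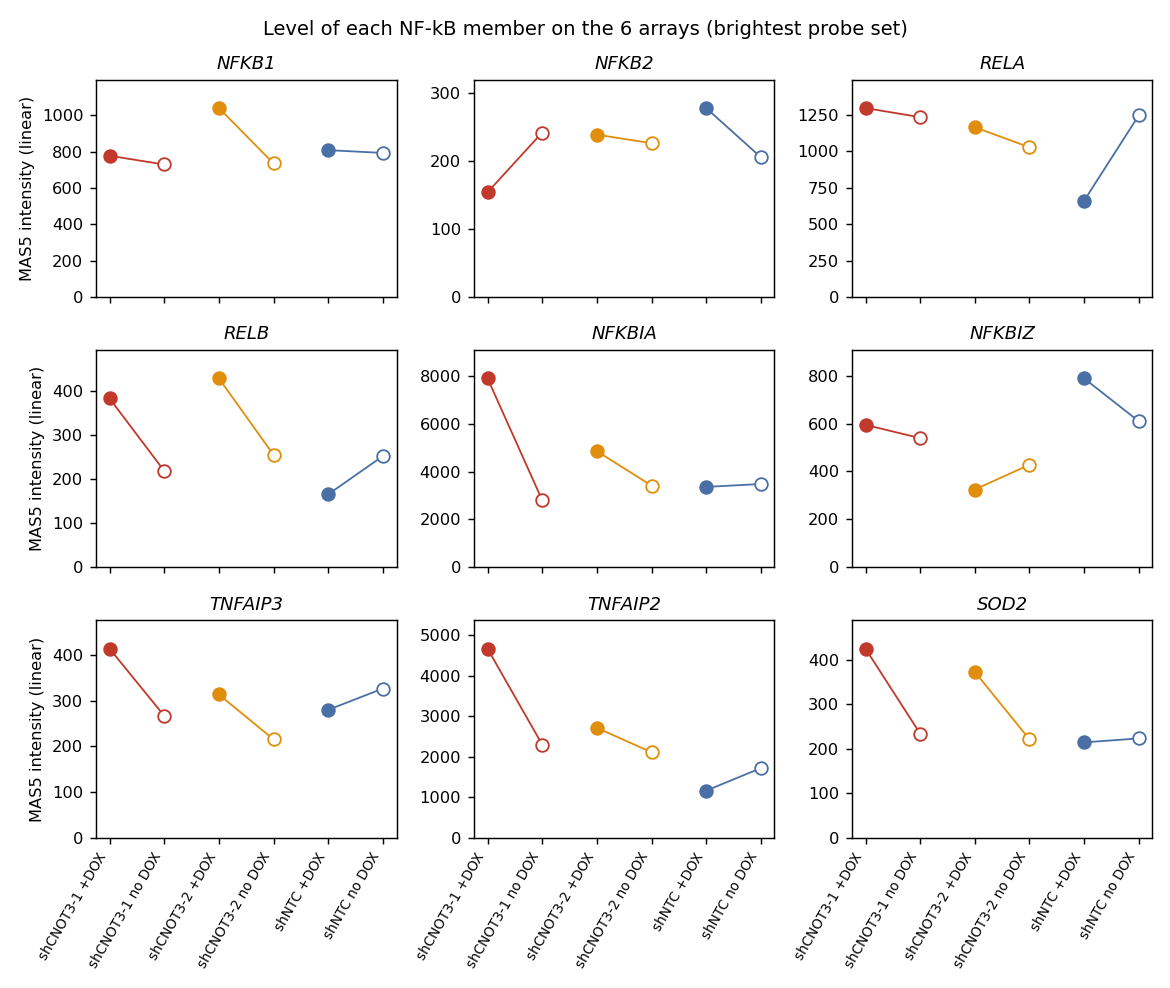
MAS5 intensity (linear, from 0) of the brightest probe set of each of the 9 members on the 6 arrays; filled points are arrays with DOX, open points arrays without it, and a line joins the arrays of 1 stable line. For RELB, NFKBIA, TNFAIP2 and SOD2 both shCNOT3 arrays with DOX lie above the other 4 arrays.

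Promoter letters are shown for the members because several of these genes are known targets of NF-kB. RefSeq promoters (GRCh38.p14) were found for 9 of the 10 genes, 17 starts in all, with none for RELB. The kB consensus, the 10-letter motif that NF-kB dimers bind, was searched on both strands in the 250 bases before each start. It was found for 6 of the 9 genes (NFKB1, NFKB2, NFKBIA, NFKBIZ, TNFAIP3 and BIRC3), or 8 of the 17 starts, and in 9.96% of 35116 promoters of the same length. A match is a description of the letters, not a bound site. The stretches below read 5′ to 3′ on the strand of the gene, with each match in capitals, and are shown for the 2 precursor subunits, the inhibitor and the A20 gene. They lie at chr4:102501290-102501339 (NFKB1, plus strand), chr10:102394451-102394529 (NFKB2, plus), chr14:35404801-35404850 (NFKBIA, minus) and chr6:137867172-137867233 (TNFAIP3, plus).
NFKB1: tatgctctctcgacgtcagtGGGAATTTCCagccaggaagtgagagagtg
NFKB2: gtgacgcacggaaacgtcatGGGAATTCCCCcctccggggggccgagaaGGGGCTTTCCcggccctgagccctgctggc
NFKBIA: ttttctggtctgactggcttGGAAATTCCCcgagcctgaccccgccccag
TNFAIP3: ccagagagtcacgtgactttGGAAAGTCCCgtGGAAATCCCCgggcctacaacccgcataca

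The match of NFKB1 began at position -49 from the start and that of NFKBIA at -81. TNFAIP3 had a pair of matches, at -67 and -55, and NFKB2 had 3 in the stretch shown, at -107, -106 and -78, of which the first pair overlap by all but 1 letter. No match to these letters was found for RELA, TNFAIP2 or SOD2 in these windows. Of the 5 members with an unadjusted p under 0.05, NFKBIA and TNFAIP3 thus had a match, TNFAIP2 and SOD2 had none, and RELB had no promoter entry. NFKB1, NFKB2 and NFKBIZ had a match and a mean change between -0.29 and 0.30.

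Among the subunits, by brightest probe sets, RELB had the most even change in the shCNOT3 lines. RELB, the partner of p52 in the slower, noncanonical branch of NF-kB, read 384 with DOX and 219 without it in shCNOT3-1, 429 and 256 in shCNOT3-2, and 166 and 253 in shNTC. Both shCNOT3 arrays with DOX lay above the other 4 arrays, and shNTC with DOX was the lowest of all 6. The mean change was 0.78 ± 0.28 (SE of the model, 95% interval 0.15 to 1.41), with changes of 0.81 and 0.75 in the hairpin lines and -0.61 in shNTC. It did not pass in limma (adjusted p = 0.258), in a fit where the shNTC change of -0.61 counts as residual spread.

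RELA, the p65 subunit that activates most canonical targets, differed mainly in shNTC. Its brightest probe set read 1298 with DOX and 1236 without it in shCNOT3-1, 1166 and 1029 in shCNOT3-2, and 662 and 1248 in shNTC. The 5 other arrays lay together, and shNTC with DOX stood below them. The other RELA probe set had the same order within shNTC, at 164 with DOX and 309 without it, and read 301 and 208 in shCNOT3-1 and 379 and 306 in shCNOT3-2. The knockdown change was 0.13 (95% interval -0.51 to 0.76, adjusted p = 0.885 in limma), and the change beyond that of shNTC was 1.04 (95% interval 0.21 to 1.87, adjusted p = 0.507).

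NFKB1, the precursor of p50, read 777 with DOX and 729 without it in shCNOT3-1, 1040 and 735 in shCNOT3-2, and 808 and 793 in shNTC. The shCNOT3-2 array with DOX was the highest, and the other 5 lay between 729 and 808. Its change of 0.30 did not pass (95% interval -0.17 to 0.76, adjusted p = 0.554 in limma).

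NFKB2, the precursor of p52, gave different answers by probe set. The brightest read 154 with DOX and 241 without it in shCNOT3-1, 238 and 226 in shCNOT3-2, and 277 and 205 in shNTC, so the groups overlapped and the mean change was -0.29 ± 0.51 (SD over the hairpins, n = 2; adjusted p = 0.714 in limma). A dimmer one, under the filter intensity of 61.4 in shNTC without DOX, read 128 and 71.7 in shCNOT3-1, 148 and 83.5 in shCNOT3-2, and 109 and 21.6 in shNTC. Its log2 differences were 0.83 and 0.81 in the hairpin lines, shNTC was also higher with DOX, and both shCNOT3 arrays with DOX lay above the other 4. A further NFKB2 probe set was under the filter, with intensities of 1.08 to 39.8.

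NFKBIA had the largest log2 difference of any member in 1 line, by brightest probe sets. NFKBIA, which encodes IkB alpha, read 7891 with DOX and 2802 without it in shCNOT3-1, 4851 and 3414 in shCNOT3-2, and 3358 and 3480 in shNTC. Both shCNOT3 arrays with DOX were above the other 4, which lay between 2802 and 3480. This was 2.82-fold higher with DOX in shCNOT3-1, 1.42-fold in shCNOT3-2 and 0.965-fold in shNTC. The mean change of 1.00 ± 0.23 (SE of the model, 95% interval 0.49 to 1.51) ranked at place 181 of the 12630 genes by p, with adjusted p = 0.0994 in limma.

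The NFKBIA call depended on the arrays and on the model. Without shCNOT3-1 its log2 difference was 0.51 with an adjusted p = 0.489 in limma, and without shCNOT3-2 it was 1.49 with an adjusted p = 0.0239. With all 6 arrays but no block for line it was 0.93 with an adjusted p = 0.0475. A second NFKBIA probe set, too dim for the filter, read 44.9 and 58.5 in shCNOT3-1, 46.9 and 72.7 in shCNOT3-2, and 27.5 and 4.53 in shNTC, with and without DOX, and averaging it in left a change of 0.25.

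NFKBIZ, a nuclear relative of the inhibitors that modulates target genes, had hairpin lines on opposite sides. Its brightest probe set read 594 with DOX and 539 without it in shCNOT3-1, 325 and 428 in shCNOT3-2, and 788 and 609 in shNTC. The shCNOT3-2 array with DOX was the lowest and the shNTC array with DOX the highest. The other probe set split the same way, with changes of 0.51, -0.35 and 0.47 in shCNOT3-1, shCNOT3-2 and shNTC. The mean change was -0.13 (95% interval -0.67 to 0.41, adjusted p = 0.853 in limma).

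TNFAIP3 encodes A20, an enzyme that edits ubiquitin chains and ends signalling to IKK. It read 414 with DOX and 267 without it in shCNOT3-1, 314 and 215 in shCNOT3-2, and 280 and 327 in shNTC. Each shCNOT3 line was higher with DOX, but shNTC without DOX lay above shCNOT3-2 with DOX, so levels overlapped. The mean change was 0.59 ± 0.06 (SD over the hairpins, n = 2), with adjusted p = 0.312 in limma. A dimmer TNFAIP3 probe set read 188 and 134 in shCNOT3-1, 145 and 111 in shCNOT3-2, and 21.4 and 133 in shNTC, with log2 differences of 0.49 and 0.39 in the shCNOT3 lines. Its shNTC array with DOX was under the filter intensity of 61.4, so the size of the difference in shNTC is uncertain.

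TNFAIP2, a target induced by tumour necrosis factor, read 4666 with DOX and 2297 without it in shCNOT3-1, 2711 and 2108 in shCNOT3-2, and 1160 and 1716 in shNTC. Both shCNOT3 arrays with DOX were above the other 4, and each shNTC array was below every array of the shCNOT3 lines, including those without DOX. The mean change was 0.69 ± 0.47 (SD over the hairpins, n = 2; adjusted p = 0.244 in limma). A dimmer probe set read 259 with DOX and 172 without it in shCNOT3-1, 133 and 199 in shCNOT3-2, and 30.3 and 61.0 in shNTC. Its log2 differences had opposite signs in the hairpin lines, 0.59 and -0.58, and both shNTC readings were under the filter intensity of 61.4, so no size is given there.

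SOD2, the mitochondrial superoxide dismutase and a long-known NF-kB target, read 425 with DOX and 233 without it in shCNOT3-1, 372 and 221 in shCNOT3-2, and 214 and 223 in shNTC. The 4 arrays without knockdown lay between 214 and 233, and both knockdown arrays stood above them. Its change of 0.81 ± 0.25 (SE of the model, 95% interval 0.25 to 1.36) did not pass (adjusted p = 0.198 in limma).

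**Figure D2:**
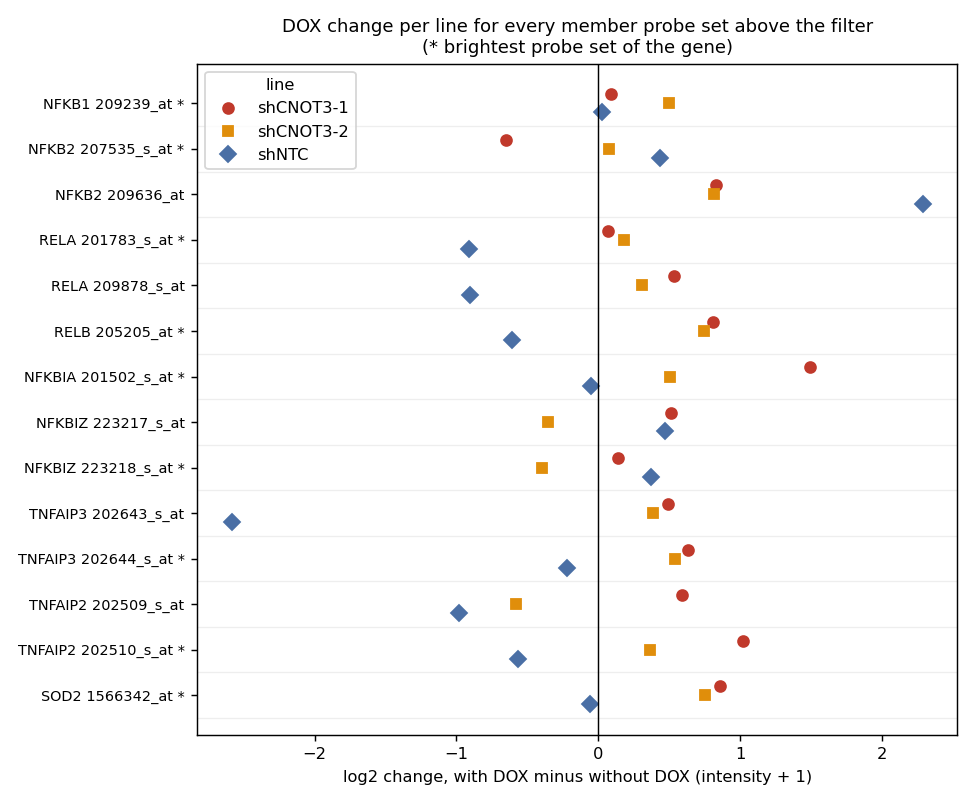
DOX change (log2, with DOX minus without) in each line for the 14 member probe sets above the filter; circles are shCNOT3-1, squares shCNOT3-2 and diamonds shNTC, 1 pair of arrays per point. RELB, SOD2 and the dimmer NFKB2 probe set have both hairpin points near 0.8, the last with shNTC farther up at 2.29. Both NFKBIZ probe sets, the brighter NFKB2 one and the dimmer TNFAIP2 one have hairpin points on opposite sides of 0.

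Across the members the hairpin lines were each higher with DOX for 8 of 9 genes (NFKB2 was lower in shCNOT3-1 and NFKBIZ in shCNOT3-2), where 54.5% and 51.8% of all tested genes were higher. The change was larger in shCNOT3-1 than in shCNOT3-2 for 6 of 9 members, and for 52.3% of all tested genes. By the brightest CNOT3 probe set 36.1% and 20.5% of CNOT3 were left in these lines, and by a second one 22.3% and 21.0%. The order of the hairpins by CNOT3 left is thus uncertain. At least a 2-fold change was seen for NFKBIA and TNFAIP2 in shCNOT3-1, for 0 members in shCNOT3-2 and for 0 in shNTC, against 6.86%, 6.46% and 4.01% of all tested genes. Both knockdown arrays were above the other 4 for 4 members, RELB, NFKBIA, TNFAIP2 and SOD2, and for 16% of all tested genes.

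**Figure D3:**
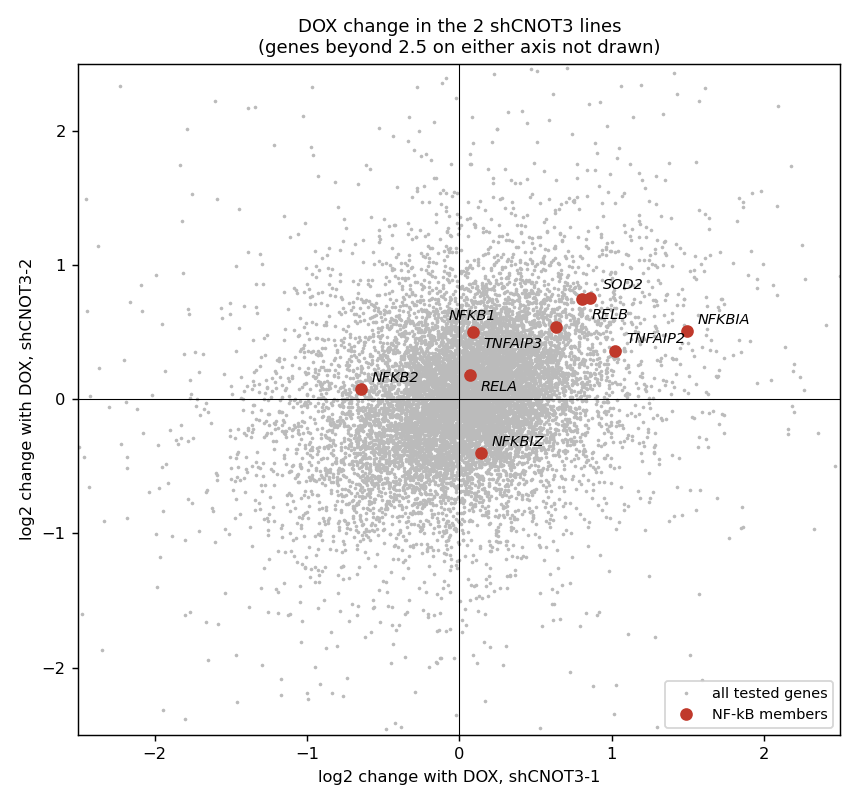
DOX change (log2) in shCNOT3-1 on the x axis and in shCNOT3-2 on the y axis for the tested genes (grey, those outside the axes not drawn) and the 9 members (red). Of the members 7 lie above 0 on both axes, with NFKBIA farthest along the x axis at 1.49 and 0.51.

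In shNTC, 6 members were lower with DOX (RELA, RELB, NFKBIA, TNFAIP3, TNFAIP2 and SOD2) and 3 higher, over a range of -0.91 for RELA to 0.43 for NFKB2, where 48.8% of all tested genes were higher. The same 6 were higher in both shCNOT3 lines, a pattern that 17.5% of all tested genes had. A second model tested the knockdown change beyond that of shNTC, with 1 residual degree of freedom. It called 0 genes in limma (0% of those tested), members included. At an unadjusted p under 0.05, 566 genes or 4.48% were higher and 495 lower, and the higher ones included RELB (1.38, adjusted p = 0.461), TNFAIP2 (1.26, adjusted p = 0.420), NFKBIA (1.05, adjusted p = 0.537) and RELA, or 4 of the 9 members. Since the shNTC change is 1 pair of arrays, the differences for RELA, RELB and TNFAIP2 rest in part on the low shNTC array with DOX. That for RELA rests mostly on it, with changes of 0.07 and 0.18 in the hairpin lines and -0.91 in shNTC.

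Without DOX the 3 lines were close for most members by their brightest probe sets. The highest line over the lowest was 1.06-fold for SOD2, 1.09 for NFKB1, 1.17 for RELB, 1.18 for NFKB2, 1.21 for RELA, 1.24 for NFKBIA, 1.34 for TNFAIP2, 1.42 for NFKBIZ and 1.52 for TNFAIP3, in the brightest probe sets. The order of the lines differed from gene to gene: shNTC was the highest for NFKB1, RELA, NFKBIA, NFKBIZ and TNFAIP3, and the lowest for NFKB2 and TNFAIP2. In the dimmer probe sets above the filter, the highest over the lowest was 3.87-fold for NFKB2 and 3.27 for TNFAIP2. It was 1.48 for RELA, 1.21 for TNFAIP3 and 1.09 for NFKBIZ. For NFKB2 and TNFAIP2 the lowest was shNTC, at readings under the filter intensity of 61.4. With 1 array per line, these orders have no replicate check.

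Other genes of the pathway came from 4 lists, and none of their tested members passed in limma. Counts at an unadjusted p under 0.05 stand against 7.45% of all tested genes higher and 7.08% lower. Of 5 other subunits and inhibitors, 1 was higher at an unadjusted p under 0.05 and 0 lower. It was NFKBIE, which encodes IkB epsilon, at 504 with DOX and 240 without it in shCNOT3-1, 585 and 204 in shCNOT3-2, and 189 and 305 in shNTC. Its change of 1.29 (adjusted p = 0.0992) was larger than that of any of the 9 members, and both shCNOT3 arrays with DOX were above the other 4.

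Of 27 genes that carry the signal to NF-kB, 0 were higher and 1 lower unadjusted, and the median change was 0.14, and 0.03 in shNTC. The lower one was BTRC, part of the ligase that marks IkB alpha for destruction (-0.61, adjusted p = 0.324), for which other probe sets above the filter gave 0.17 and 0.03. The genes of the IKK subunits, IKBKB, CHUK and IKBKG, picked here for their role after values were seen, had mean log2 differences of -0.01, -0.23 and 0.20.

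Of 15 further feedback genes and brakes, 4 were higher and 1 lower unadjusted, with a median of 0.25, and of 0.16 in shNTC. TNIP1, which binds A20, read 2015 with DOX and 1268 without it in shCNOT3-1, 3420 and 1249 in shCNOT3-2, and 1036 and 1255 in shNTC (change 1.06, adjusted p = 0.0955). CFLAR, a caspase-8 inhibitor, had a difference of 0.64 (adjusted p = 0.157), and the ubiquitin ligase gene ITCH also 0.64 (adjusted p = 0.242), with 0.47 in shNTC. Probe sets disagreed for both: others above the filter gave -0.27 to 0.60 for CFLAR and -0.36 to 0.35 for ITCH.

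Of 28 other targets, 6 were higher and 0 lower unadjusted, with a median of 0.20, and of -0.03 in shNTC. The chemokine CCL20 (3.47, adjusted p = 0.129), the survival gene BCL2A1 (2.30, adjusted p = 0.113) and the cytokine IL6 (1.65, adjusted p = 0.155) had the largest differences. CCL20 read 1225 with DOX and 246 without it in shCNOT3-1, 4809 and 192 in shCNOT3-2, and 18.7 and 189 in shNTC, so both shCNOT3 arrays with DOX were far above the other 4. BCL2A1 read 165 with DOX and 81.1 without it in shCNOT3-1, 904 and 74.3 in shCNOT3-2, and 106 and 78.7 in shNTC, so both shCNOT3 arrays with DOX were above the other 4, shCNOT3-2 by far the most. IL6 read 255 and 69.4 in shCNOT3-1, 216 and 79.3 in shCNOT3-2, and 51.0 and 105 in shNTC. In shNTC with DOX, CCL20 and IL6 were under the filter intensity of 61.4. Without DOX, BCL2A1 and IL6 in the shCNOT3 lines were little above it, so the sizes of these changes are uncertain. Of the 28, 14 were higher in both shCNOT3 lines, where 33.2% of all tested genes were. Lower in both was 1, for which the share over all genes was not counted. For a pair of classic targets chosen after their values were seen, the lines had opposite signs: ICAM1, an adhesion molecule, gave -0.36 and 0.36 in the hairpin lines, and the chemokine CCL2 -1.56 and 0.68.

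**Figure D4:**
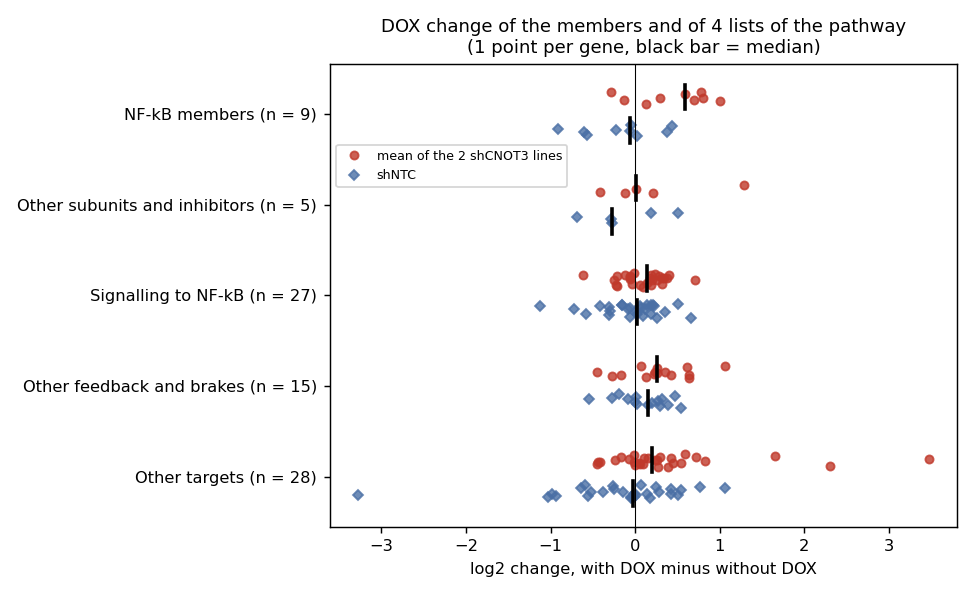
DOX change (log2) per gene for the 9 members and for 4 lists of the pathway; red points are the mean of both shCNOT3 lines, blue diamonds shNTC, and black bars medians. Medians of the shCNOT3 lines are 0.59 for the members and 0.01 to 0.25 for the other lists.

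The genes most like the members over the 6 arrays were ranked by Pearson's r with the mean of the members' centred log2 values. MRPL49 (r = 0.999), STAT5A (0.997), FBXL12 (0.995), NSUN5 (0.994) and KLC1 (0.993) led, and GALNT10 (-0.996), ENTPD4 (-0.995) and TMTC3 (-0.992) ran most against it. STAT5A, a signal transducer, read 244 with DOX and 124 without it in shCNOT3-1, 190 and 118 in shCNOT3-2, and 112 and 134 in shNTC. With 6 arrays that share their lines, 130 of 12621 genes had an r over 0.95, so these are descriptions only.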

How the data were processed

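Total RNA of 6 A549 cultures was measured on Affymetrix arrays. The authors deposited MAS5 intensity per probe set, per the submitters' processing notes, whose settings the sources used here do not give. Every array had a 2% trimmed mean of 500.1, a median of 64.9 to 72.8, and 202 to 376 of 54675 probe sets at the floor of 1. Precision is limited by the number of arrays.

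Control probe sets (62) and probe sets listed with several genes (1801) or none (11777) were left out, and symbols were updated through Entrez identifiers for 41037 of 41091 probe sets. Intensities plus 1 were taken to log2, the brightest probe set stood for a gene, and 7145 genes under the filter were left out. limma 3.58.1 (R 4.3.3, trend in the prior variance, 2-sided, Benjamini-Hochberg over all 12630 genes) fitted line plus knockdown, and line plus DOX plus knockdown. The labels pair the arrays of a line. The knockdown fit, not the other, was tested on simulated data with independent spread on each array and no DOX change put into shNTC. Its estimates of the changes put in had little mean error. The share of false calls was above the nominal one in every run, so calls near the threshold are less sure than their adjusted p. How the fit behaves when shNTC changes with DOX was not tested. Motifs and figures used Python 3.11.15 and matplotlib 3.10.9.

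The members and lists were chosen with earlier results of these data known. All members were named, with up to 3 genes per list by size of change. Alternatives were the scaling, the added constant, the filter, the probe set rule, the prior, the block, and leaving out each line.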

Additional observations from a re-analysis of the deposited data

Results flagged for a closer look

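For 6 members both shCNOT3 lines were higher with DOX while shNTC was lower, which is why they are given here. The mean change of the shCNOT3 lines minus that of shNTC was 1.04 for RELA, 1.38 for RELB, 1.05 for NFKBIA, 0.81 for TNFAIP3, 1.26 for TNFAIP2 and 0.86 for SOD2. The test of the difference passed for none of them in limma (adjusted p = 0.420 to 0.676), and 0 of the 12630 genes passed it. With averaged probe sets the difference was -0.91 for NFKBIA and 1.92 for TNFAIP3, and without shCNOT3-1 it was 0.56 for NFKBIA.

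Of the 4 probe sets listed with both SOD2 and SOD2-OT1, which the comparisons did not use, 3 were higher on both shCNOT3 arrays with DOX than on the other 4 arrays. The brightest read 2468 with DOX and 806 without it in shCNOT3-1, 2181 and 763 in shCNOT3-2, and 752 and 1027 in shNTC, a mean hairpin change of 1.56. The next had a mean change of 0.75. The dimmest, whose intensity was 3.91 to 81.3, had one of 3.01. Its mean log2 of 4.48 was under the filter, so the size of its change is uncertain. The fourth gave -0.04 and 0.71 in the hairpin lines. These values are not assigned to either gene.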

How the results depend on the processing

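The number of genes called with knockdown, 28, was 64 with 64 added before log2, 3 with no filter on dim genes, 6 with averaged probe sets, 0 with no intensity trend, 191 with no replicate block, and 39 to 62 with 1 line left out. It was within 1.5 times of 28 with quantile normalization, with 16 added and with every probe set tested. Of the members, 0 passed except NFKBIA (1 member) with no replicate block and without shCNOT3-2, so leaving out a line gave 0 to 1. Leaving out a shCNOT3 line keeps a single knockdown pair, which is then assumed to vary as shNTC did with DOX. The members' median of 0.59 became 0.48 with 64 added, 0.35 with the mean of the probe sets and 0.42 with no replicate block.

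Signs turned for 3 members. With the mean of the probe sets, NFKB2 gave 0.62 with knockdown and 0.34 beyond shNTC, and NFKBIA gave -0.91 beyond shNTC, since their dim probe sets then count as much as the bright ones. With a line left out, NFKB2 ran from -0.65 to 0.0777 and NFKBIZ from -0.40 to 0.14. Adjusted p over the 11 alternatives of the knockdown change ran from 0.0239 to 0.822 for NFKBIA, 0.0579 to 0.508 for SOD2 and 0.0830 to 0.565 for RELB, whose signs did not turn. The change beyond shNTC called 0 genes under each alternative of scaling, constant, filter, probe set rule and prior, and it has no test with a shCNOT3 line left out. Intensities under about 61.4 on some arrays limit the dimmer probe sets of NFKBIA, NFKB2, TNFAIP3 and TNFAIP2. The same holds for the dimmest probe set listed with both SOD2 and SOD2-OT1.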
